A study of Mus musculus with 10 samples.

Results

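Mitochondrial ribosomal protein genes were examined in single-cell RNA sequencing libraries of dissociated mouse embryonic back skin. The members were taken by name: all gene symbols made of Mrpl or Mrps, a number and at most 1 letter, which gave 78 genes of the 32285 listed for the E15.5 and E17.5 libraries. The older list of 27998 genes used at E16.5 held all 78, 77 under the same symbol and Mrpl58 under its earlier symbol with the same identifier. Mrpl53 was listed there but held only 1 and 4 UMIs (unique molecular identifiers, 1 per captured mRNA molecule) in the basal cells of the E16.5 controls, and it did not pass the count filter in the tests of E16.5 alone. Its counts stay in the sums and in the tests that combine stages. By textbook assignment, 51 members code for proteins of the large subunit and 26 for the small one. Of these, 31 and 17 were counted as having a bacterial counterpart and 20 and 9 as specific to mitochondria. The Mrps18 paralogs were all counted with the former by shared ancestry. Mrps30 and Mrps18a carry small-subunit names but sit in the large subunit, and Mrps36 is now known as a component of the oxoglutarate dehydrogenase complex rather than of the ribosome.

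The mitochondrial ribosome translates the few mRNAs of mitochondrial DNA, all of which code for subunits of the respiratory chain and ATP synthase. Its RNAs are mitochondrial, but its proteins are encoded in the nucleus, made in the cytosol and imported, so respiration depends on both genomes. In skin, the basal layer holds the dividing epidermal progenitors, the suprabasal layers hold their differentiating progeny, and fibroblasts make up much of the dermis below.

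Libraries of 3 stages were compared. At E15.5, 2 control libraries (replicates 2 and 3) were set against 2 MOF cKO libraries (replicates 5 and 6), which carry MOF fl/fl and K14Cre. At E16.5, 2 controls were set against 2 MOF cKO of the same genotype, and at E17.5 1 control was set against 1 QPC cKO, in which Uqcrq, a subunit of respiratory complex III, is the floxed gene. MOF, encoded by Kat8, acetylates histone H4 at lysine 16. The K14 promoter is active in the skin epithelium, and fibroblasts are not its target. The study describes E15.5 MOF cKO replicate 6 as mosaic for MOF loss and replicate 5 as uniform, a distinction drawn from the expression of these same libraries and from staining for H4K16ac, so leaving out replicate 6 is not independent of the measurements. Controls are labelled only as such, and the alleles they carry are not given in the labels. Kept cells per library numbered 716 to 10653, with median UMIs per cell from 9600 to 22340. Cells were classed by counts of keratin and collagen UMIs into basal, suprabasal and fibroblast cells. The E16.5 MOF cKO libraries held only 21 and 22 basal and 9 and 13 suprabasal cells, against 239 and 464 basal and 31 and 66 suprabasal cells in their controls. Levels are given as counts per 1000000 UMIs of the class in a library (CPM), which is a share and not an amount per cell. In such sums fewer mRNA molecules per cell and a larger share of other mRNAs cannot be told apart.

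The classes were checked against markers that the gates did not use. The sum of 6 basal markers (Col17a1, Dst, Itga6, Itgb4, Krt15 and Trp63) was 2605 to 4532 CPM in basal cells of the controls and 60.7 to 228 in fibroblasts of all libraries. Suprabasal cells held these markers too, at 176.5 to 7153 CPM, and at E17.5 more than basal cells did (7153 against 2605 in the control), so they did not separate the epithelial classes from each other, and the lowest suprabasal value, in E16.5 MOF cKO replicate 1, lay within the fibroblast range. The sum of the suprabasal markers was higher in suprabasal than in basal cells of every library, at 4023 to 47090 against 421 to 3974 CPM. The basal markers were lower in basal cells of MOF cKO embryos than in those of their controls, at 1451 and 3151 for E15.5 replicates 5 and 6 and 754 and 1268 at E16.5. The sum of 5 hair follicle markers also differed between the basal groups. It was 117 and 106 CPM in the E15.5 controls and 79.0 and 70.2 in the MOF cKO. At E16.5 it was 130 and 172.5 against 66.5 and 81.2, and at E17.5 135 in the control and 398 in the QPC cKO. What part follicle cells in the basal class had in the results was not tested. The sum of 6 fibroblast markers reached 11660 CPM in the E17.5 control basal cells, of which 1270 of 2807 also held at least 30 collagen UMIs, which was also so for 98 of the QPC cKO basal cells. In basal cells of E16.5 control replicate 1 it was 5012 CPM, with 5 muscle markers at 305 and 75 of 239 cells with at least 30 collagen UMIs. In E16.5 control replicate 2 it was 1544 with 23 of 464 such cells, and in the E16.5 MOF cKO libraries 516 and 792 with 0 such cells. The main sums and edgeR counts of called members that rest on these basal classes are therefore also given without cells that hold at least 30 collagen UMIs. The stage by genotype term, fits without single libraries, other alternative settings and counts below or above both controls are given only with those cells. Kat8 was at 13.0 and 13.7 CPM in basal cells of the E15.5 controls and at 13.4 and 10.3 in the MOF cKO, and at 16.4 and 14.9 against 8.31 and 4.51 at E16.5. In fibroblasts it was at 9.18 and 9.62 in the E15.5 controls and 6.83 and 5.98 in the MOF cKO, and at 9.60 and 8.23 against 2.81 and 5.39 at E16.5, also lower in the cKO. A 3′ tag lies outside a deleted exon unless that exon is the last, so these values do not check the labels. Uqcrq was at 103 CPM in basal cells of the E17.5 control and 45.7 in the QPC cKO, at 144 and 27.8 in suprabasal cells, and at 69.4 and 122 in fibroblasts, so it was lower in both epithelial classes of the cKO and higher in its fibroblasts.

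The 78 genes lie on 17 chromosomes (GENCODE vM21, GRCm38). Of these, 18 (23.1%) start within 1000 bases of a protein-coding gene that runs the opposite way without overlapping it at the start, against 6.79% of all 21951 protein-coding genes. With pairs whose first bases overlap, such as Mrpl46 and Mrps11, the count was 33 (42.3%), against 10.9%. Promoter sequences from RefSeq (GRCm38.p6, 250 bases before to 50 after the start) were matched for 69 members. The letters CCGGAAG, the core bound by ETS factors, were present on either strand in 34.8% of the member promoters and in 9.12% of 27025 promoters of all genes. For the YY1 motif the shares were 7.25% and 0.699%, for the NRF1 motif 4.35% and 0.977%, for the GC box GGGGCGGGG 18.8% and 11.6%, for CCAAT 39.1% and 37.9%, and for TATAAA 5.8% and 14.2%. The median GC content was 58.3% in member promoters and 52.7% in all. These are letter matches and no measure of binding. For members the promoter nearest the annotated gene start was taken, and for all genes the first listed, so the choices differ. The 27025 promoters are also more than the 21951 protein-coding genes used for the neighbour counts. The 100 bases before the RefSeq start are shown for the Mrps18 paralogs and Mrps36, and for Mrpl34 and Mrpl17 as examples of a fall and a rise; capitals mark any of the searched motifs on either strand within this stretch.
Mrps18a, chr17:46110903-46111002, plus strand: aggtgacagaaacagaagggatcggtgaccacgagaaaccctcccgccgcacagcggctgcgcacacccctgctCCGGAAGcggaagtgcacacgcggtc
Mrps18b, chr17:35916442-35916541, minus strand: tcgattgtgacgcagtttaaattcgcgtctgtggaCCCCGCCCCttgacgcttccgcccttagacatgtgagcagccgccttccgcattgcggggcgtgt
Mrps18c, chr5:100798658-100798757, plus strand: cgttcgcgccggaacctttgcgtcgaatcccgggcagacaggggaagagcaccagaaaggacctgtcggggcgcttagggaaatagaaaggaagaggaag
Mrps36, chr13:100744661-100744760, minus strand: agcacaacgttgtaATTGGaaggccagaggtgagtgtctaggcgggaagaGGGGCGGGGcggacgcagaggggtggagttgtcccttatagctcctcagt
Mrpl34, chr8:71464825-71464924, plus strand: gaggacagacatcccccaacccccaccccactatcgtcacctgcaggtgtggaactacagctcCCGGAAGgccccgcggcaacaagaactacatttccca
Mrpl17, chr7:105811089-105811188, minus strand: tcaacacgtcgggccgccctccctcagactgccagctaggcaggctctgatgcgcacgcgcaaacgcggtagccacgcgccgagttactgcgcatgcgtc
Mrps18a and Mrpl34 held the ETS letters within these 100 bases. In Mrps18b, Mrps18c and Mrpl17 they lay elsewhere in the 300-base promoter, and Mrps36 held the GC box and CCAAT letters but no ETS letters. Whether these letters relate to the changes given below was not tested. Mrps18a lies at chr17:46110986-46128910, Mrps18b at chr17:35910379-35916389 and Mrps18c at chr5:100798627-100804471. Mrps18b starts beside Ppp1r10 and Mrps18c beside Helq, each in the opposite direction.

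Control basal cells gave the baseline. Averaged over 5 control libraries, Mrpl23, a protein at the exit of the peptide tunnel, was the highest member at 215 CPM (range 169 to 284). It was followed by Mrps14 at 183 (136 to 207), Mrpl52 at 179 (151 to 244), Mrpl12, a protein of the stalk that recruits translation factors, at 168 (115 to 200), and Mrpl18 at 160 (101.1 to 197). The ranges of these neighbours overlap, so their order is not fixed. Mrpl42, Mrpl33, Mrpl30, Mrpl51 and Mrpl20 completed the 10 highest, with means from 144 to 157. All but Mrps14 of these 10 belong to the large subunit. Mrps2 was the lowest member, at 11.96 CPM (9.87 to 16.7). Because 3′ tags are counted once per molecule, these levels do not need division by gene length, but capture can differ between transcripts. In basal cells with under 30 collagen UMIs Mrpl23 was again the highest, at 227 (208 to 288), and Mrps2 the lowest, at 13.2 (9.92 to 19.3). There Mrpl12 lay above Mrpl52 and Mrps24, a small-subunit member, took the place of Mrpl20 among the 10 highest.

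In the test across control libraries, more members were higher than lower in suprabasal against basal cells. The median difference of the members was 0.22 on the log2 scale, against -0.06 over the 11248 genes tested. In the edgeR quasi-likelihood test with Benjamini-Hochberg adjustment, 28 of 78 members were higher in suprabasal cells and 1 was lower, where 15.3% of all genes were higher and 16.7% lower. The summed level did not move one way in all libraries. It was 6718.5, 6819.5, 6443, 6755 and 5916 CPM in suprabasal and 6046, 6015.5, 6840, 6779 and 4833 in basal cells of the 5 controls, higher in both E15.5 libraries and the E17.5 library and lower in both E16.5 libraries. In the E16.5 controls 10 of 31 and 31 of 66 suprabasal cells held under 0.5% mitochondrially encoded UMIs and summed to 4049 and 5928 CPM. Without such cells the E16.5 sums were 6896 and 7068 in suprabasal and 6834 and 6770 in basal cells, so the order there turned. In cells with under 30 collagen UMIs the E17.5 sums were 5930.5 and 5616, and 29 members were higher and 1 lower, where 19% of all genes were higher and 21.6% lower. By subunit, 22 of 51 large-subunit and 6 of 26 small-subunit members were higher.
Mrpl57, a small protein specific to the mitochondrial large subunit, was at 105, 105, 87.9, 103 and 76.6 CPM in basal cells of E15.5 replicates 2 and 3, E16.5 replicates 1 and 2 and the E17.5 control. In suprabasal cells the same libraries gave 164, 172, 98.5, 150 and 158. The E17.5 basal value was 89.2 without cells holding at least 30 collagen UMIs. It was higher in suprabasal cells in 5 of 5 libraries, by 0.75 ± 0.11 (SE) on the log2 scale (adjusted p = 0.00296). Mrps26 rose by 0.69 ± 0.09 (adjusted p = 0.00163), Mrpl36 by 0.62 ± 0.13 (adjusted p = 0.0109) and Mrpl15 by 0.50 ± 0.08 (adjusted p = 0.00355) in the same edgeR fit. The single member that was lower in suprabasal cells was Mrpl58, a peptidyl-tRNA hydrolase that rescues stalled ribosomes, by -0.41 ± 0.12 (adjusted p = 0.0336).
Other genes of mitochondrial translation and respiration were counted in the same fit. Of 16 mitochondrial translation factors 5 were higher and 1 lower, among them the initiation factor Mtif3 (0.98, adjusted p = 0.0139 in edgeR) and the recycling factor Mrrf (0.80, adjusted p = 0.0304), with the insertase Oxa1l lower (-0.38, adjusted p = 0.0344). Of 17 mitochondrial tRNA synthetases 4 were higher, of 27 mitoribosome assembly factors 3, and of 36 nuclear complex I subunits 16 with 1 lower. Cytosolic ribosomal proteins showed 1 higher of 81 and a median of -0.09, and none of 13 mitochondrially encoded mRNAs was called in edgeR, with 0 at an unadjusted p under 0.05. The number of members called depended on single libraries: 10 were higher without E15.5 control replicate 2 (10.9% of all genes), 8 without E15.5 control replicate 3 (9.55%), 19 without E16.5 control replicate 1 (12.4%), and 12 with 1 lower with scaling by library size alone (12.1% and 20.1%).

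Fibroblasts of the controls held less of most members than basal cells. The median difference was -0.20 on the log2 scale, against -0.02 over 14424 genes, and edgeR called 43 members lower and 8 higher, where 29.8% of all genes were lower and 29.8% higher. With basal cells under 30 collagen UMIs 40 were lower and 8 higher, where 32.1% of all genes were lower and 32.2% higher. The summed level was lower in fibroblasts of 4 of 5 libraries, at 5831, 5780.1, 6454 and 3966 against 6046, 6015.5, 6840 and 4833 CPM, and higher in E16.5 control replicate 2, at 6868.5 against 6779. Mrpl44, a large-subunit protein with a ribonuclease III fold, showed the largest difference. It was at 25.6, 26.1, 36.4, 42.0 and 22.6 CPM in basal cells of the 5 control libraries and at 9.27, 9.19, 16.97, 14.3 and 9.08 in fibroblasts, without overlap between the classes. Its E17.5 basal value was 33.96 without cells holding at least 30 collagen UMIs. The difference was -1.45 ± 0.12 (adjusted p = 0.000613 in edgeR). Small-subunit members Mrps35 (-0.96, adjusted p = 0.000827), Mrps27 (-0.89, adjusted p = 0.00305) and Mrps22 (-0.77, adjusted p = 0.000578) followed. In the opposite direction, Mrpl4 was higher in fibroblasts by 0.34 ± 0.07 (adjusted p = 0.00652) and Mrpl33 by 0.31 ± 0.06 (adjusted p = 0.00585). None of the 29 members counted as mitochondria-specific was higher in fibroblasts, where 17 were lower. Most of the 43 lower members were counted as having a bacterial counterpart, and the share that was lower was similar in both kinds. The 8 higher members were all counted as having a bacterial counterpart. Among them was Mrps18a (0.18), counted so only by its shared ancestry with the other Mrps18 paralogs, so the split depends on this assignment. Of the assembly factors 19 of 27 were lower, of the translation factors 10 of 16, and of the tRNA synthetases 11 of 17. The summed tRNA synthetases were not lower at E15.5, at 264.8 and 264.8 CPM in fibroblasts and 263.5 and 250.1 in basal cells. Complex I subunits did not move one way. They summed to 6871, 6911.5, 6435, 8818 and 4744 CPM in fibroblasts of the 5 controls and to 6512, 6641.5, 6553, 8234 and 5471 in basal cells. All 13 mitochondrially encoded mRNAs were lower, with a median of -0.50.

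**Figure D1:**
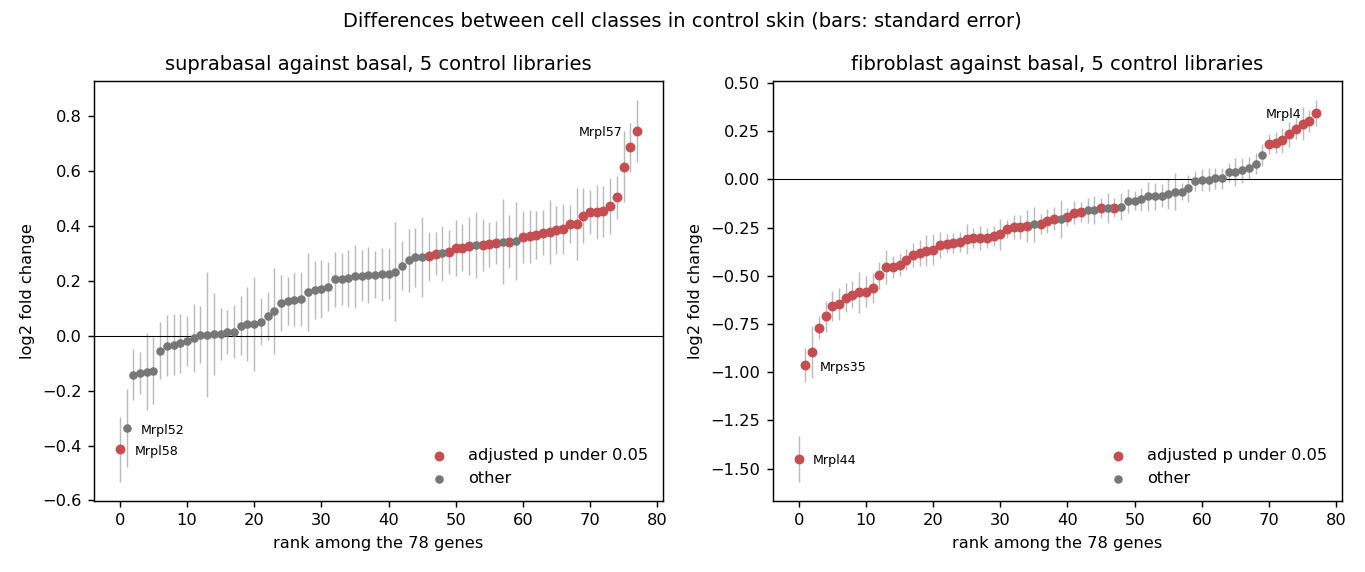
Log2 fold change of each of the 78 genes between cell classes in the 5 control libraries, ranked on the x axis, with standard errors as bars and genes past an adjusted p of 0.05 (edgeR) in red. In suprabasal cells 28 members were higher than in basal cells, and in fibroblasts 43 were lower, with Mrpl44 at -1.45.

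The first MOF comparison asked what happens to these mRNAs in basal cells that lose the acetyltransferase. At E15.5 the controls summed to 6046 and 6015.5 CPM over the 78 members. MOF cKO replicate 5 was at 3903 and replicate 6, the mosaic one, at 5893. Both cKO libraries were thus below both controls, but replicate 6 by only a small margin, and the group means were 6031 ± 21.4 and 4898 ± 1407 (SD, n = 2 each). In edgeR 0 of 78 members passed an adjusted p of 0.05, as did 0% of all 14364 genes; 5 members had an unadjusted p under 0.05, against 9.11% of all genes, and DESeq2 also called 0, against 0.787%. The median log2 fold change was -0.26 for the members and -0.01 for all genes. After TMM scaling, both cKO libraries lay below both controls for 34 of 78 members, against 28.4% of all genes, and above both for 8, against 26.1%. In CPM, scaled by library size alone, the counts were 36 below, against 32.9%, and 3 above, against 17.7%.
Single cells showed what the sums hide. The median basal cell held 60.1 and 59.99 member UMIs per 10000 in the controls, 38.1 in replicate 5 and 61.1 in replicate 6. Cells under 40 per 10000 made up 1.9% and 3.13% of control basal cells, 56.3% in replicate 5 and 16.6% in replicate 6. Replicate 6 therefore had a median like the controls and a long lower tail, with a lower quartile of 48.3 against 53.4 in both controls.

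**Figure D2:**
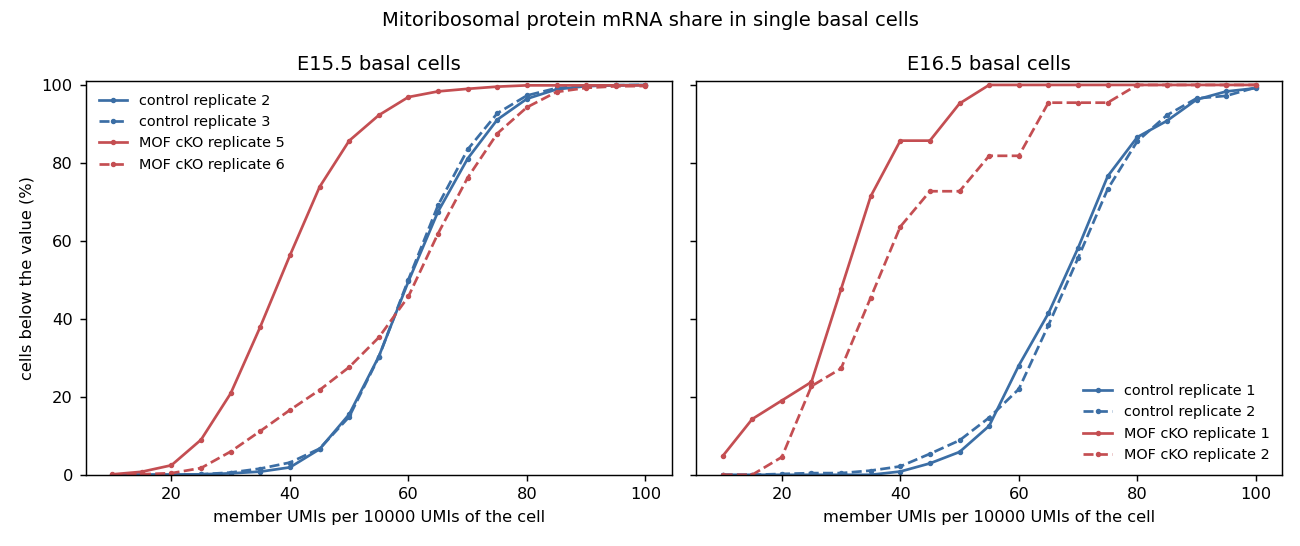
Percentage of basal cells (y axis) whose member UMIs per 10000 UMIs lie below each value (x axis), 1 line per library, at E15.5 and E16.5. E15.5 MOF cKO replicate 5 is shifted left of the controls up to 90 per 10000, above which nearly all cells of each library are counted. Replicate 6 is shifted left only at its lower end, with 16.6% of its cells under 40 per 10000. The E16.5 MOF cKO lines rest on 21 and 22 cells.

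Without the mosaic replicate 6, replicate 5 stood alone against 2 controls, and its own spread was taken to equal that of the controls. In that edgeR fit 57 of 78 members were lower and 5 higher, where 26.8% of all 15213 genes were lower and 22.6% higher. The median was -0.47, against -0.04 over all genes. This shows how far 1 library lay from 2 others and is no replicated test of MOF loss.
Mrps36 had the largest fall. It was at 73.7 and 74.9 CPM in the controls, 20.6 in replicate 5 and 63.5 in replicate 6, a log2 fold change of -1.55 ± 0.07 without replicate 6 (adjusted p = 8.24e-05). Mrpl35, a large-subunit protein, was at 76.8 and 74.95 in the controls, 21.3 in replicate 5 and 67.7 in replicate 6, a change of -1.54 ± 0.07 (adjusted p = 7.82e-05). Both genes placed replicate 6 between the controls and replicate 5. Mrpl34 (-1.34), Mrpl55 (-1.31), Mrps12, which lies at the decoding centre (-1.28), and Mrpl22 (-1.18) fell as well. For Mrps12 the controls themselves differed, at 36.2 and 59.7 CPM.
The 5 members that rose were Mrps18b (0.89, adjusted p = 0.000378), Mrpl17 (0.64, adjusted p = 0.000579), Mrpl54 (0.59, adjusted p = 0.000835), Mrps6 (0.29, adjusted p = 0.0126) and Mrpl12 (0.18, adjusted p = 0.0433). With replicate 6 included, Mrps18b changed by 0.65 ± 0.21 and Mrpl17 by 0.46 ± 0.17, both with an adjusted p of 0.509 in edgeR. The rises of Mrps6 and Mrpl12 exist only after TMM scaling. In CPM Mrps6 was at 55.3 and 56.8 in the controls and 55.7 in replicate 5, and Mrpl12 at 174 and 177 against 162. Mrpl17, a large-subunit protein near the tunnel exit, was at 91.7 and 94.8 CPM in the controls and 118 and 111 in replicates 5 and 6, so that here the mosaic library lay near replicate 5.

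The Mrps18 paralogs share an ancestor but occupy different places in the ribosome. Mrps18c, the closest to the bacterial protein, was at 64.9 and 62.7 CPM in the E15.5 controls, 18.6 in replicate 5 and 52.6 in replicate 6. At E16.5 it was at 50.1 and 86.8 in controls and 8.31 and 15.8 in MOF cKO, with both cKO below both controls at each stage. Mrps18b was at 35.6 and 38.4 in the E15.5 controls and 55.7 and 47.4 in the MOF cKO, with both cKO above both controls. At E16.5 it was at 58.7 and 49.2 against 58.2 and 78.9, and these groups overlap. Mrps18a was at 51.3 and 52.5 in the E15.5 controls, 34.9 in replicate 5 and 54.6 in replicate 6, and at 84.0 and 65.2 against 16.6 and 42.9 at E16.5. On the fitted scale at E16.5, Mrps18c changed by -2.02 ± 0.58 (adjusted p = 0.170 in edgeR), Mrps18b by 0.86 and Mrps18a by -0.79, and none passed the test. The differences between the paralogs were not tested.

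**Figure D3:**
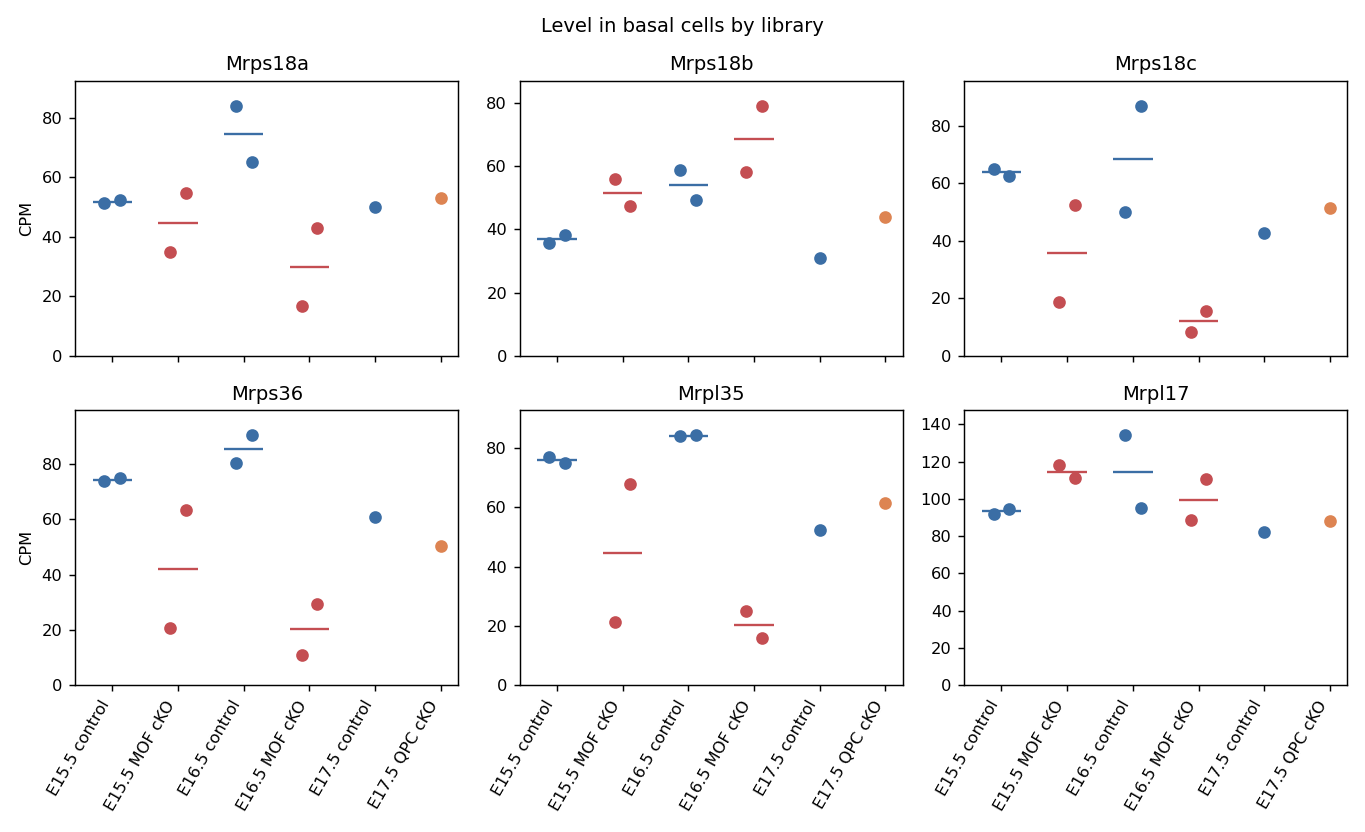
Levels of 6 members in basal cells, 1 point per library and group means as lines, in CPM. Mrps18c, Mrps36 and Mrpl35 are low in E15.5 MOF cKO replicate 5 (18.6, 20.6 and 21.3) and in both E16.5 MOF cKO libraries, while Mrps18b is higher in both E15.5 MOF cKO libraries than in both controls.

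At E16.5 the basal sums were 6840 and 6779 CPM in controls and 3098 and 3791 in MOF cKO. The means were 6810 ± 43.1 and 3445 ± 490 (SD, n = 2 each). With 21 and 22 cKO cells, 0 of 77 members passed the edgeR test, where 0.243% of 9454 genes did. An unadjusted p under 0.05 was reached by 27, against 20.3% of all genes, and DESeq2 called 2 lower and 0 higher, against 0.444% and 2.68%. After TMM scaling both cKO libraries lay below both controls for 56 of 77 members, against 32.4% of all genes, and above both for 6, against 24.1%. In CPM these counts were 70, against 51.7%, and 0, against 10.4%. In cells with under 30 collagen UMIs the control sums were 6929 and 6829, the cKO sums were as above, and 0 members passed the edgeR test, with 31 at an unadjusted p under 0.05, against 24.6% of all genes. The median was -0.68, against -0.11 for all genes. Scaling by library size alone moved these to -1.21 and -0.64; such a rescaling shifts all genes by about the same amount.
Mrps17 was at 126 and 110 CPM in controls and 22.2 and 27.1 in MOF cKO, a change of -1.74 ± 0.33 (adjusted p = 0.106 in edgeR). Mrpl21 was at 99.5 and 115 against 13.9 and 22.6, a change of -2.05 ± 0.41 (adjusted p = 0.113). Neither gene showed any overlap between groups. Mrps18b, Mrpl54 and Mrpl17 again had positive fitted changes, of 0.86, 0.67 and 0.33, none of which passed the test; with scaling by library size alone Mrpl17 turned to -0.21.
Across 77 members, the change of E15.5 replicate 5 and the change at E16.5, measured in separate libraries, had a Pearson r of 0.733 and a Spearman rho of 0.681. With replicate 6 included r was 0.696 and rho 0.602. In the first pairing 64 members were lower and 7 higher at both stages. Over all 9365 genes tested in both fits r was 0.519 and rho 0.531, with 39.9% lower and 30.7% higher at both stages, and with replicate 6 included r was 0.453 and rho 0.479. Genes are not independent replicates, and E15.5 and E16.5 libraries also differed in chemistry and gene list.

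**Figure D4:**
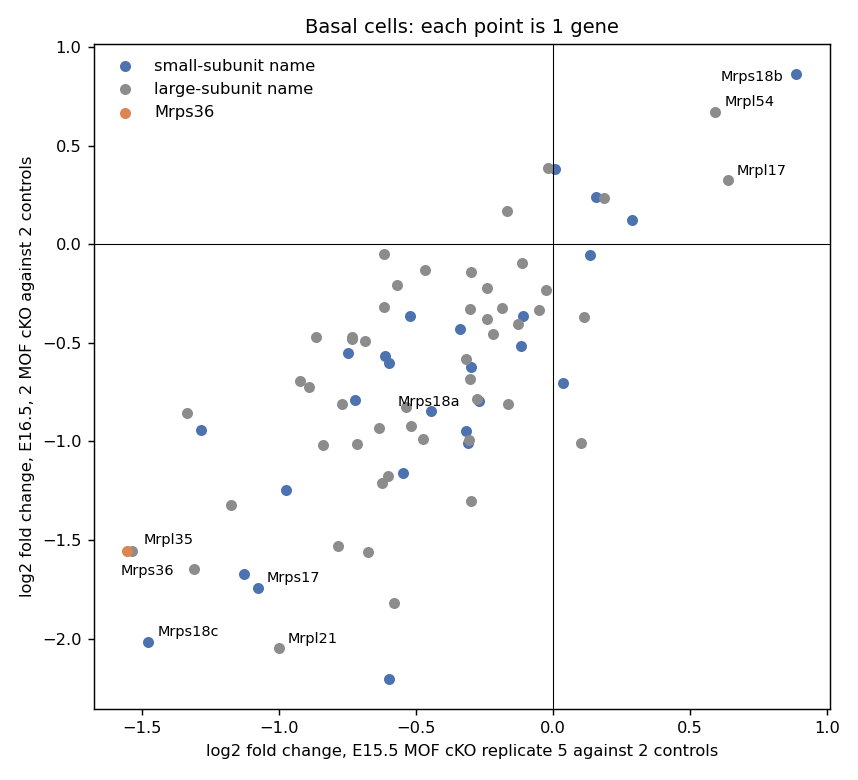
Log2 fold change of each of 77 members in basal cells, E15.5 MOF cKO replicate 5 against 2 controls (x axis) and E16.5 MOF cKO against controls (y axis), coloured by assigned subunit. Mrps18a and Mrps30 are coloured as large-subunit members, although the legend speaks of subunit names. Most points lie in the lower left, with Mrps36, Mrpl35 and Mrps18c lowest on the x axis, and Mrps18b, Mrpl54 and Mrpl17 in the upper right.

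Several other quantities also differed between the basal sums, some of them in only 1 library or with overlap between groups. Cytosolic ribosomal protein mRNAs took 237540 and 316380 CPM in basal cells of the E16.5 controls and 399300 and 410590 in the MOF cKO. At E15.5 they took 287490 and 293810 in controls, 362450 in replicate 5 and 287170 in replicate 6. With these genes and the mitochondrially encoded genes left out of the denominator, the log2 ratio of the summed members at E16.5 was -0.70 in place of -0.98. The 6 immune markers summed to 859 CPM in basal cells of E16.5 MOF cKO replicate 2 and to 32.3 to 167 in the other E16.5 libraries. The suprabasal markers were at 3974 and 1333 CPM in E16.5 MOF cKO basal cells and 790 and 1951 in controls. The basal markers there were at 754 and 1268 against 3045 and 4532. Erythroid markers, present in all classes, were at 33760 in E15.5 replicate 5 and 12700 to 21880 in the other E15.5 basal sums. Basal cells with under 0.5% mitochondrially encoded UMIs were 6 of 21 and 5 of 22 in the E16.5 MOF cKO. In the controls they were 6 of 239 and 5 of 464. The members summed to 4311 and 4266 CPM in such cells of the cKO and 2713 and 3756 in the rest. For the controls these sums were 7533 and 8472 against 6834 and 6770. The part of all these quantities in the result was not tested.
Fitted over both stages, basal cells again gave 0 of 78 members in edgeR, as for 0% of all genes, with 27 at an unadjusted p under 0.05, against 14.8%. DESeq2 called 3 lower and 1 higher, against 0.455% of all genes lower and 2.03% higher. In cells with under 30 collagen UMIs edgeR also called 0 members, a count given here without the share of all genes. Without replicate 6 this fit called 15 lower and 1 higher, where 4.08% of all genes were lower and 2.89% higher. The stage by genotype term called 0 members in edgeR and in DESeq2, against 0.0152% and 1.55% of all genes, with 13 at an unadjusted p under 0.05, against 11.5%.

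Suprabasal cells of the MOF cKO were compared in the same way, at lower cell numbers. At E15.5 the controls summed to 6718.5 and 6819.5 CPM, replicate 5 to 4919.6 and replicate 6 to 6390. Replicate 5 was again the lowest and replicate 6 lay between it and the controls. The fibroblast markers summed to 991 and 897 CPM in suprabasal cells of replicates 5 and 6 and to 533.5 and 332 in the controls. The basal markers summed to 500 and 1774 against 4114 and 2656, and the suprabasal markers to 8474 and 5959 against 6556 and 6035. Cells with under 0.5% mitochondrially encoded UMIs made up 18.6% and 11.7% against 6.12% and 4.71%. What part these had in the result was not tested. After TMM scaling both cKO were below both controls for 46 of 78 members, against 21.8% of all genes, and above both for 4, against 20.5%. In CPM these counts were 38, against 21.7%, and 3, against 16.8%. In edgeR 0 members passed, as did 0% of all genes, and 6 had an unadjusted p under 0.05, against 7.73%. DESeq2 called 0, against 0.453%. Without replicate 6, 19 members were lower and 2 higher, where 6.43% of all genes were lower and 9.06% higher, led by Mrpl35 (-1.42, adjusted p = 0.00144 in edgeR) and Mrpl34 (-1.30, adjusted p = 0.00195).
At E16.5 the controls summed to 6443 and 6755 and the MOF cKO to 2606 and 3830, or to 2606 and 4289 without cells holding at least 30 collagen UMIs. The markers of these cells moved with the members. The suprabasal markers summed to 47090 and 38520 CPM in the controls and 14170 and 5259 in the cKO, and the basal markers to 2756 and 3979 against 176.5 and 1018. Krt14, used in the basal and fibroblast gates, was at 6804 and 6883 in controls and 30400 and 20170 in the cKO. Their part in the result was not tested. Mrpl35 was the only member of 70 tested that passed in edgeR. It was at 100.5 and 127 CPM in controls and 10.4 and 13.7 in the cKO, a change of -2.73 ± 0.52 (adjusted p = 0.0378); 4.03% of 4266 genes passed. This call was lost without E16.5 control replicate 2, without either MOF cKO library, with gates per 10000 UMIs and in cells with under 30 collagen UMIs. It was also lost with the replicate number as a block. After TMM scaling both cKO were below both controls for 46 of 70 members, against 33.6% of all genes, and above both for 4, against 28.6%. In CPM these counts were 61, against 51.3%, and 0, against 15.3%. The median percentage of mitochondrially encoded UMIs was 0.081 and 0.069 in these 9 and 13 cells, against 3.44 and 2.02 in the controls. Cells with under 0.5% such UMIs were 8 of 9 and 8 of 13 in the MOF cKO and 10 of 31 and 31 of 66 in the controls. The members summed to 2385 and 3479 CPM in these cells of the cKO and 4049 and 5928 in those of the controls, and to 2957 (1 cell) and 3967 (5 cells) against 6896 and 7068 in the remaining cells. Over both stages 0 members passed in edgeR, against 0.15% of all genes, 18 had an unadjusted p under 0.05, against 13%, and DESeq2 called 0, against 1.93%.

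**Figure D5:**
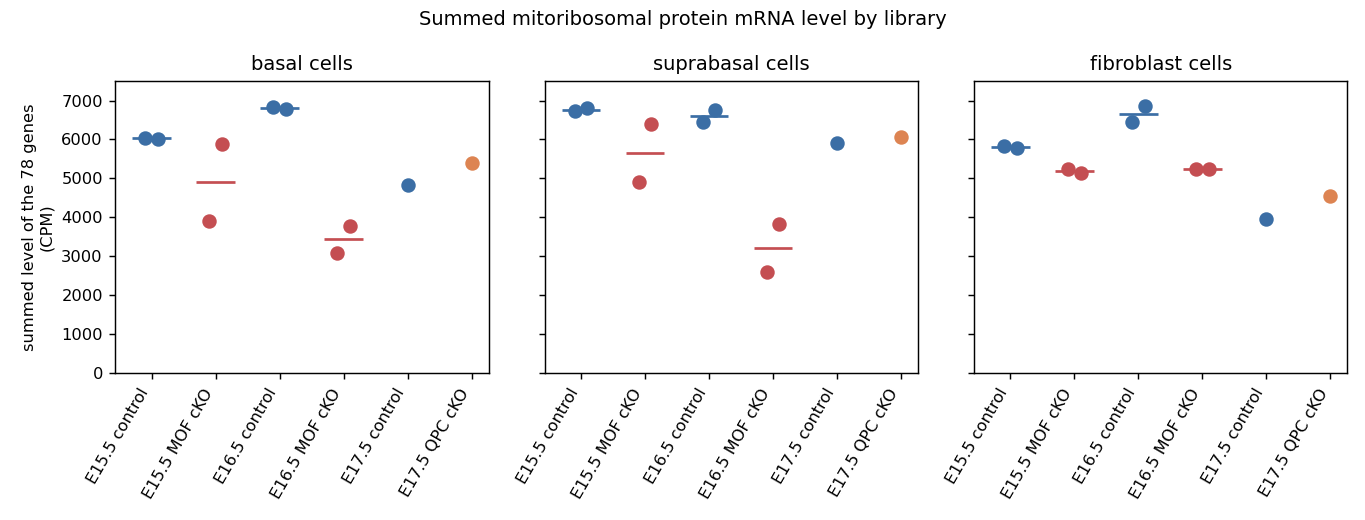
Summed level of the 78 members in each library, in CPM, for basal, suprabasal and fibroblast cells; points are libraries and lines group means. MOF cKO libraries lie below the controls of their stage in all 3 classes, from 5893 against 6015.5 in E15.5 basal cells of replicate 6 to 2606 against 6443 in E16.5 suprabasal cells, and E17.5 has 1 library per group.

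Fibroblasts, which are not the target of K14Cre, also held less. At E15.5 the controls summed to 5831 and 5780.1 CPM and MOF cKO replicates 5 and 6 to 5234.5 and 5143. Here replicate 6 was no longer between replicate 5 and the controls. At E16.5 the sums were 6454 and 6868.5 in controls and 5232 and 5248 in MOF cKO, again without overlap. The fall was 10.6% at E15.5 and 21.3% at E16.5 of the control mean. At E15.5 this was less than the basal fall of replicate 5 but not of replicate 6, whose basal sum of 5893 lay closer to its controls than its fibroblast sum of 5143 did.
After TMM scaling, both cKO libraries were below both controls for 63 of 78 members at E15.5, against 24.6% of all genes, and above both for 1, against 24.5%. In CPM these counts were 62, against 20.4%, and 2, against 26.3%. At E16.5 they were 50 of 77, against 29%, and 3, against 28.4%, and in CPM 62, against 35.8%, and 0, against 18.1%. Over both stages, 43 of 78 members were below both controls at each stage and 0 were above, against 11.9% of all genes below and 12.1% above; in CPM 48 were below and 0 above, against 11% and 9.41%. In edgeR 0 members passed at E15.5, as did 0% of all genes, and 34 had an unadjusted p under 0.05, against 15.6%. DESeq2 called 11 lower and 0 higher there, against 1.59% and 1.45% of all genes. Over both stages 0 members passed in edgeR, as did 0% of all genes, and 42 had an unadjusted p under 0.05, against 22.5%. DESeq2 called 26 lower and 0 higher, against 4.89% and 5.47%.
Mrpl18, whose bacterial counterpart binds a small ribosomal RNA, was the 1 member called in edgeR at E16.5. It was at 180 and 183 CPM in controls and 94.3 and 99.3 in MOF cKO, a change of -0.79 ± 0.14 (adjusted p = 0.0435), where 4.64% of all genes were called. It was also lower at E15.5, at 164 and 159 against 138 and 136, though not past the test there. The call was lost without E16.5 control replicate 2, without either MOF cKO library and in fibroblasts with under 3 keratin UMIs. It was also lost with the replicate number as a block. Mrps36 and Mrps18c had the lowest unadjusted p at E15.5, with changes of -0.33 and -0.34 (adjusted p = 0.181 for each in edgeR), much smaller than in basal cells of replicate 5. Mrps18b, at 28.0 and 30.3 in controls and 29.4 and 29.5 in the cKO, overlapped between groups.
Nuclear complex I subunits moved alike in fibroblasts at E15.5, with 34 of 36 below both controls and a median of -0.22. At E16.5 12 of 36 were, and their sum overlapped between groups, at 6435 and 8818 CPM in controls and 6997 and 6488 in MOF cKO. The sum of 6 fibroblast markers was 13070 and 13640 CPM in E15.5 MOF cKO fibroblasts, 11020 and 10990 in their controls, 13730 and 14810 in E16.5 MOF cKO and 12550 and 11410 in their controls. Markers of other cells were also higher in MOF cKO fibroblasts. At E16.5 the immune markers were at 104 and 225 CPM against 19.2 and 40.9 in controls, the endothelial markers at 20.9 and 14.7 against 5.43 and 6.44, and the muscle markers at 42.6 and 50.8 against 24.1 and 18.98. At E15.5 the endothelial markers were at 13.1 and 10.3 against 6.92 and 6.65 and the muscle markers at 22.0 and 25.3 against 15.9 and 11.1, while the immune markers overlapped between groups. The part of these markers in the result was not tested.
Whether basal cells changed more than fibroblasts of the same libraries was tested as an interaction. In edgeR 0 members passed at E15.5, as did 0% of all genes, with 5 at an unadjusted p under 0.05, against 6.86%. At E16.5 0 passed, against 0.0229%, with 22 at an unadjusted p under 0.05, against 15.3%. DESeq2 called 0 at both stages, against 0.147% and 1.32%. Without replicate 6, 48 members fell more and 6 less in basal cells at E15.5, where 21.2% of all genes fell more and 17.8% less, with Mrpl35 at -1.51 and Mrps36 at -1.24. Without replicate 5, 9 members were called and all were relatively higher in basal cells, against 2.1% of all genes higher and 1.15% lower. With gates per 10000 UMIs, 16 members fell more and 1 less at E16.5, against 5.31% and 4.67% of all genes. With basal cells under 30 collagen UMIs 5 fell more and 0 less at E16.5, against 1.65% and 1.42%.

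The partners of the mitoribosome were lower with it in basal cells of E15.5 replicate 5. In the edgeR fit without replicate 6, in which 26.8% of all genes were lower and 22.6% higher, 13 of 16 translation factors were lower and 0 higher, with a median of -0.71, among them the translation GTPase Guf1 (-2.03, adjusted p = 0.000161), the initiation factor Mtif2 (-1.04, adjusted p = 0.0003) and the mRNA-binding Slirp (-0.94, adjusted p = 0.000246). Of 27 assembly factors 20 were lower, with a median of -0.57, including Rbfa, which matures the small subunit (-1.06, adjusted p = 0.000338). Of 17 tRNA synthetases 10 were lower and Lars2 was higher (0.40, adjusted p = 0.00696). Nuclear complex I subunits gave 24 lower and 1 higher of 36, with a median of -0.42. Cytosolic ribosomal proteins went the other way, with 78 of 81 higher and a median of 0.61, and of 13 mitochondrially encoded mRNAs 6 were higher and 4 lower. With replicate 6 included, none of these lists had a member past the test in edgeR at E15.5; at an unadjusted p under 0.05 there was 1 translation factor, 1 tRNA synthetase and 1 mitochondrially encoded mRNA, and 0 in the other lists named here, against 9.11% of all genes. In fibroblasts at E16.5 the exchange factor Tsfm was lower (-0.64, adjusted p = 0.0469 in edgeR), just under the limit. The share of all genes called in that fit is given above with Mrpl18, and a single call is no result about the list.

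At E17.5, loss of Uqcrq addressed whether a respiratory chain defect itself went with a change of these mRNAs. With 1 library per group there is no test, and intervals are exact 95% Poisson intervals that cover counting error only. Basal cells summed to 4833 CPM in the control and 5399.5 in the QPC cKO, suprabasal cells to 5916 and 6076, and fibroblasts to 3966 and 4542. Without cells holding at least 30 collagen UMIs the basal sums were 5616 and 5499, so the direction in basal cells turned. The basal classes also differed in hair follicle markers, at 135 CPM in the control and 398 in the QPC cKO, whose part was not tested.
Members were counted where both libraries together held at least 100 UMIs. In basal cells 0 of 78 members differed by 1.5-fold, against 7.33% of all genes higher and 20.8% lower, and without the cells holding collagen UMIs the count was also 0 of 78, against 2.93% higher and 11.2% lower. In cells under 5% mitochondrial UMIs 8 of 78 were higher and 0 lower, against 13.6% and 21% of all genes. In fibroblasts 0 of 78 did, against 8.09% higher and 5.73% lower. In suprabasal cells 1 of 77 was past 1.5-fold, against 2.79% higher and 6.05% lower. That member was Mrps36, lower at 41.7 CPM (33.4 to 51.4) in the QPC cKO than in the control at 62.6 (55.8 to 69.9). It lay just past the limit, and without the suprabasal cells holding at least 30 collagen UMIs 0 members were past it, with Mrps36 at 41.7 and 62.4, against 2.74% of all genes higher and 6.42% lower. In suprabasal cells under 5% mitochondrial UMIs 3 of 75 were lower and 0 higher, against 9.02% and 3.65%. In basal cells it was at 50.3 (47.6 to 53.1) and 60.7 (58.9 to 62.6), also lower in the cKO, and without the cells holding collagen UMIs at 49.8 (47.0 to 52.7) and 65.2 (62.6 to 67.9). In fibroblasts it was at 59.6 (57.7 to 61.5) and 57.2 (54.8 to 59.7), intervals that overlap.
Mrps18b stood at the opposite end in the epithelium. It was at 44.0 CPM (41.5 to 46.6) in QPC cKO basal cells against 30.8 (29.5 to 32.2) in the control, and at 66.6 (56.0 to 78.6) against 47.2 (41.3 to 53.6) in suprabasal cells. Without the basal cells holding collagen UMIs it was at 45.6 (43.0 to 48.4) against 36.5 (34.6 to 38.6). In fibroblasts it was at 24.0 (22.8 to 25.2) against 23.1 (21.5 to 24.7). Mrpl35 and Mrps18c, low in MOF cKO, were at 61.2 and 51.3 in QPC cKO basal cells and 52.3 and 42.6 in the control. Without the cells holding collagen UMIs they were at 63.1 and 53.1 in the QPC cKO and 65.0 and 53.5 in the control, so their higher values in the QPC cKO were no longer seen. Over 77 members, the basal MOF change at E16.5 and the basal QPC ratio had a Pearson r of 0.148 and a Spearman rho of 0.131, and of 0.297 and 0.283 without the cells holding collagen UMIs. These are descriptions across genes, and each E17.5 group is 1 library.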

How the data were processed

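Single-cell RNA sequencing with 10x 3′ kits (v3.1 at E15.5, v2 at E16.5, v3 at E17.5) was analysed in 10 libraries. The deposited files hold raw UMI counts per gene and cell, which the authors made by alignment to mm10; the submitters' processing notes list Cell Ranger 1.3.1 and 6.1.2. Cells with over 1000 and under 6000 genes and under 10% mitochondrial UMIs were kept. Basal cells held at least 10 Krt5 and Krt14 UMIs and under 10 of Krt1 and Krt10, suprabasal cells at least 20 of Krt1 and Krt10, and fibroblasts at least 30 of Col1a1 and Col3a1 with under 10 of Krt5 and Krt14. No doublet caller was run, and at most 0.354% of the smaller library's barcodes recurred in another. Counts were summed per library and class and tested with edgeR 4.0.16 (R 4.3.3; filterByExpr, TMM, quasi-likelihood, Benjamini-Hochberg over all genes) and, as an alternative, DESeq2 1.42.0; control classes and basal against fibroblast effects were fitted with the library as a block. Scripts were tested on simulated data. The study describes pairs of control and MOF cKO embryos with littermate controls; the labels do not tie libraries to litters, and p-values measure the spread between these libraries. Members and lists were chosen with earlier results of these data known. Genes open to naming were the 10 highest in control basal cells, the 8 lowest p of a comparison, the 6 largest calls in each direction, the 6 largest E17.5 ratios in each direction, and Mrps18a, Mrps18b, Mrps18c, Mrps30 and Mrps36. Genes of the pathway lists were open to naming where past the threshold. Only a part of these genes is named, and the choice among them followed no stated rule. Mrpl53 and other examples outside this rule were chosen after their values were seen. Alternatives covered scaling, filters, gates, denominators and each library left out.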

Additional observations from a re-analysis of the deposited data

How the results depend on the processing

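Values are members called in edgeR at an adjusted p of 0.05 unless stated. The percentage of all genes called in the same direction under that setting follows, except after the reported counts and the ranges over left-out libraries. Those ranges describe how far the counts moved and are no result about the members. Basal E15.5, 0 as reported, gave between 0 and 62 on leaving out single libraries, with 1 higher (2.4%) and 2 lower (2.57%) without MOF cKO replicate 5 and 62 without replicate 6 (5 higher, 22.6%, and 57 lower, 26.8%). Suprabasal E15.5 (0) gave 2 lower without a filter on low counts (0.637%) and 0 to 21 on leaving out libraries. Fibroblast E15.5 (0) gave 11 lower in DESeq2 (1.59%) and 2 lower without the filter (0.344%). Basal E16.5 (0) gave 2 lower in DESeq2 (0.444%), 12 lower without the filter (3.12%) and 6 lower with gates per 10000 UMIs (2.66%). Suprabasal E16.5 (1) gave 3 lower with library size alone (4.2%), 2 with upper-quartile scaling (1.2%), 4 without the filter (2.22%), 0 with gates per 10000 UMIs (0.591%), 0 in cells with under 30 collagen UMIs (0.141%) and 0 to 1 on leaving out libraries. Fibroblast E16.5 (1) gave 6 lower with library size alone (3.91%), 11 without the filter (4.55%), 0 in cells with under 3 keratin UMIs (1.42%; chosen after seeing the data) and 0 to 2 on leaving out libraries. Over both stages, basal cells (0) gave 4 in DESeq2 (3 lower, 0.455%, and 1 higher, 2.03%), 5 lower without the filter (0.663%) and 0 to 16 on leaving out libraries. Suprabasal cells (0) gave 1 lower without the filter (0.886%) and 0 to 4 on leaving out libraries, and fibroblasts (0) 26 lower in DESeq2 (4.89%). The basal against fibroblast difference (0) gave 0 to 54 on leaving out libraries at E15.5, with 9 higher without MOF cKO replicate 5 (2.1%). At E16.5 it gave 1 lower without the filter (0.633%), 17 with gates per 10000 UMIs (16 lower, 5.31%, and 1 higher, 4.67%), 5 lower with under 30 collagen UMIs (1.65%) and 0 to 1 on leaving out libraries. Suprabasal against basal in controls (29) gave 13 with library size alone (12 higher, 12.1%, and 1 lower, 20.1%), 19 higher without the filter (8.51%) and 8 to 23 on leaving out libraries, with 19 higher without E16.5 control replicate 1 (12.4%).

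With the replicate number as a block at E16.5, 0 members were called in basal, 0 in suprabasal and 0 in fibroblast cells. The few libraries leave this fit little room to call any gene, so no conclusion is drawn from these counts. Across genes, the deviations of same-numbered libraries had correlations of -0.078, -0.038 and -0.021 in these classes. With so few libraries such values cannot decide whether same-numbered libraries share a litter or preparation, which the labels do not give.

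The summed log2 ratio of MOF cKO to control at E15.5 was -0.30 in basal and -0.26 in suprabasal cells, and on leaving out libraries ranged from -0.63 to -0.0333 and from -0.46 to -0.0831, the lower ends without MOF cKO replicate 6. At E16.5 basal it was -0.98, -0.70 without mitochondrially encoded and cytosolic ribosomal genes in the denominator and -1.14 to -0.84 on leaving out libraries. Suprabasal it was -1.04 and ranged from -1.34 to -0.78. Fibroblast it was -0.35, -0.27 with that denominator and -0.39 to -0.30 on leaving out libraries. For QPC cKO, basal 0.16 turned to -0.0458 with gates per 10000 UMIs and to -0.0302 with under 30 collagen UMIs, and was 0.27 in cells under 5% mitochondrial UMIs, 0.14 without the gate genes and 0.28 with the reduced denominator. Suprabasal 0.04 became 0.10 under 5% and 0.0876 with that denominator, and fibroblast 0.20 became 0.21 with gates per 10000 UMIs, 0.18 without the gate genes and 0.22 with that denominator. Under 5% mitochondrial UMIs, 8 of 78 basal members were higher by 1.5-fold, as were 13.6% of all genes, and 3 of 75 suprabasal members were lower, as were 9.02%; in suprabasal cells 0 were past 2-fold and 0 past 1.5-fold with under 30 collagen UMIs. The cause of these shifts was not tested. At E16.5 the MOF cKO sums rest on 21 and 22 basal and 9 and 13 suprabasal cells, which limits those values.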

Other observations

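Mrps30, which sits in the large subunit despite its name, was at 39.2 and 39.4 CPM in basal cells of the E15.5 controls, 25.97 in MOF cKO replicate 5 and 43.3 in replicate 6. At E16.5 it was at 44.7 and 40.0 in controls and 24.9 and 22.6 in MOF cKO. At E17.5 it was at 37.5 in the control and 43.8 in the QPC cKO, and at 41.3 and 44.96 without basal cells holding at least 30 collagen UMIs. Mrpl53 held 90.1 to 94.3 CPM in E15.5 control basal cells and 0.298 and 0.59 at E16.5, where another chemistry and gene list were used.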
